A study of Homo sapiens with 12 samples.

Results

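The SOX, PAX, FOX, GATA and T-box factors are 5 families of DNA-binding transcription regulators that specify cell types in the embryo. The 59 factors described here were chosen by name. Of them, 44 matched a row of the table by Ensembl identifier, and all 44 passed the filter on low counts. They are 44 of 21569 genes, 17084 of which were tested. By family they are 7 of 8 PAX factors, 13 of 17 SOX factors, 9 of 14 FOX factors, 3 of 6 GATA factors and 12 of 14 T-box factors. The other 15, which include SOX9, SOX10, SOX17, FOXA2, PAX2, GATA6 and TBXT, were not analysed here.

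Polyadenylated RNA was sequenced from TC71, an established line of Ewing sarcoma, a tumour driven by a fusion of EWSR1 with an ETS factor, grown in DMEM with 10% serum. The 4 groups of 3 libraries were wild-type cells, knockout clone 1 of ID2, knockout clone 2 of ID2, and cells labelled as an ID2 rescue of clone 2, which carry the knockout as well. Each knockout group is 1 clone, so the knockout and the history of a clone cannot be told apart, and the vector of the rescue is not given in the sources used here. The labels do not state whether libraries of a group are separate cultures. A p-value here thus reflects library-to-library spread only, and that spread may be technical.

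ID2 is a helix-loop-helix protein with no DNA-binding domain that holds E proteins off their DNA site, the E-box. PAX factors bind DNA through a paired domain, SOX factors through an HMG box that bends DNA, FOX factors through a winged helix, GATA factors through zinc fingers and T-box factors through the T domain. The cell of origin of Ewing sarcoma is held to be a mesenchymal or neural crest-derived cell, and many of these factors mark neural crest, cartilage, endothelium, blood or limb mesenchyme.

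Library totals ran from 19420408 to 29748084 counts. Levels below are in CPM (TMM-scaled counts set to one total for all libraries), given for the 3 libraries of a group in the order of their numbers, and the error of a mean is the SD over n = 3. Differences are log2 fold changes from one edgeR quasi-likelihood fit, with SE. The SE was derived as the absolute log2 fold change over the square root of the test's F statistic. It is approximate, above all for factors with few reads. A factor was called higher or lower at a Benjamini-Hochberg adjusted p under 0.05 over all 17084 genes. All 8 markers listed for Ewing sarcoma had a row, and their summed level ran from 1197 to 1583 CPM over the 12 libraries. ID2 (ENSG00000115738, chromosome 2, 8678845 to 8684453, plus strand) stood at 77.6, 78.6 and 77.4 CPM in wild-type cells, 17.9, 17.4 and 18.9 in clone 1, 47.8, 50.8 and 54.1 in clone 2 and, under the rescue label, 42.0, 41.6 and 40.9. The libraries labelled rescue were thus lower in ID2 RNA than clone 2, with a log2 fold change of -0.29 (SE 0.047), against their label. A count of RNA does not test whether an edited transcript makes protein.

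Levels were first compared between factors as CPM per kb of exon. The length was that of all annotated exons of a gene joined, such as 36714 bases for FOXP1, 19636 for SOX6 and 2513 for SOX2. Genes with many annotated exons may thus rank too low. In wild-type cells SOX2, a factor of neural progenitors, and SOX12, a SoxC factor, stood highest, at 24.3 and 23.8 CPM per kb. They were followed by PAX7, a factor of neural crest and muscle satellite cells, at 14.9, the MAX-binding repressor MGA at 8.17, PAX9 at 7.83, SOX4 at 7.77 and the haematopoietic factor GATA2 at 7.62 CPM per kb. TBX4, SOX6 and the neural crest factor FOXD3 came next, at 6.94, 6.60 and 6.03. At the other end PAX5 and TBX5 had 2 wild-type reads each over 3 libraries. In clone 1, SOX18 stood at 21.0 CPM per kb, against 3.90 in wild-type, and SOX11 at 0.111, against 4.89.

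**Figure D1:**
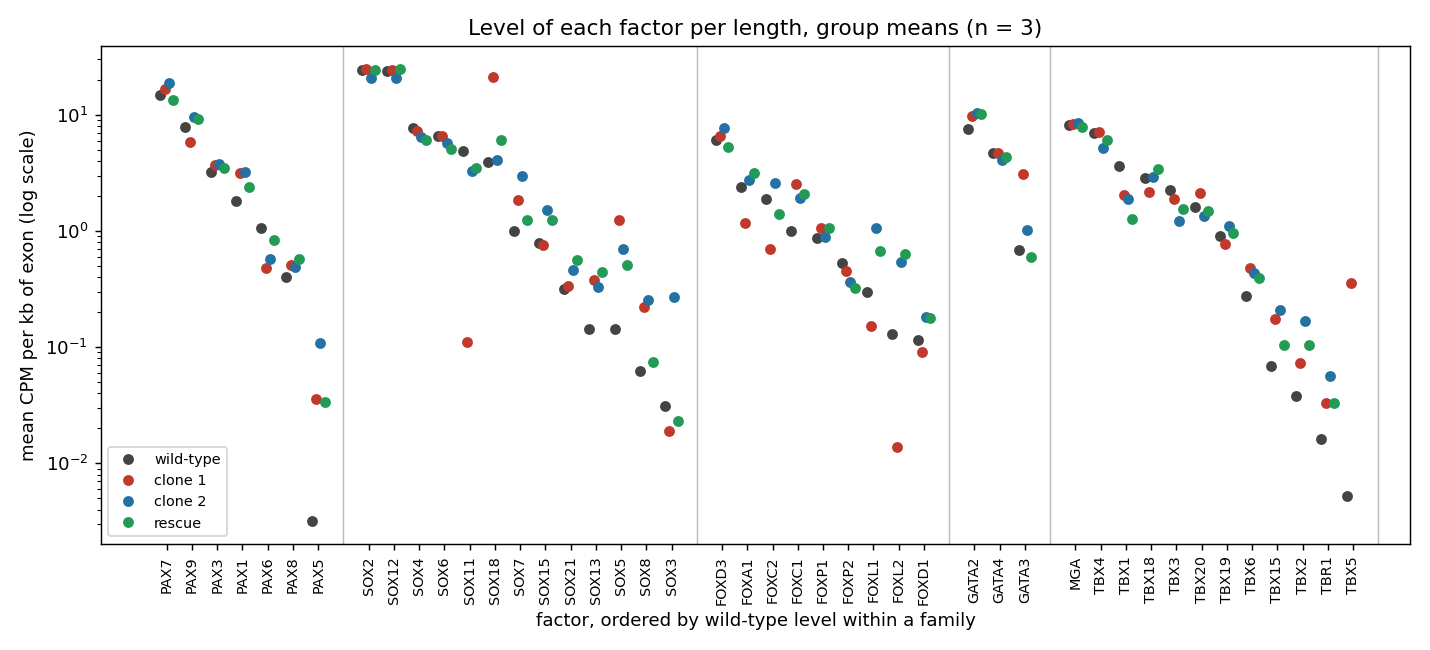
Mean level of each of the 44 factors in CPM per kb of exon, on a log axis, with 1 point for each of the 4 groups (mean of 3 libraries) and the factors of a family ordered by their wild-type level. TBX5 has no point for clone 2 and rescue, where it had 0 reads. The points of most factors lie close together, while SOX11, SOX18, FOXL2 and TBX5 have a clone 1 point far from the others.

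Clone 1 lost nearly all SOX11 RNA and gained TBX5, PAX5, SOX5, SOX18 and GATA3. PAX6, FOXA1, FOXC2 and FOXL2 were lower there by 2-fold or more. In clone 1, 28 of the 44 factors were called different from wild-type, beside 61.5% of all genes tested. Of these, 18 were higher, beside 30.8% of all genes, and 10 lower, beside 30.7%. At 2-fold or more, 9 were higher, beside 9.61% of all genes, and 5 lower, beside 4.06%. TBX5, among the 9, passed the low-count filter only through clone 1, with 113 reads there, so it could hardly be called other than higher. SOX8 and TBX15, also among the 9, passed it through the clones, with 21 wild-type reads each. PAX5 passed it mainly through clone 2, with 2 wild-type reads. These factors could hardly be called lower in clone 1 either. The median absolute log2 fold change was 0.55 over the 44 factors and 0.29 over all genes, and the signed medians were 0.08 and 0.01.

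Clone 2 gained PAX5, SOX5, SOX8, FOXL1, FOXL2 and TBX2, each past 2-fold, and kept most of its SOX11 RNA. PAX6 and TBX1 were lower in clone 2 than in wild-type, by less than 2-fold. In clone 2, 33 of 44 were called against wild-type, beside 62.1% of all genes, with 22 higher, beside 31.5%, and 11 lower, beside 30.6%. At 2-fold or more, 11 were higher, beside 10.4% of all genes, and 0 lower, beside 2.87%. SOX3, PAX5 and TBR1, among the 11, passed the low-count filter mainly through clone 2, with 41, 71 and 37 reads there. SOX8, TBX15, TBX2 and FOXL2, also among the 11, passed it through clone 2 and another group where they were higher. They held 21, 21, 17 and 29 reads in wild-type. These factors could thus hardly be called other than higher in clone 2. The median absolute log2 fold change was 0.55 over the factors and 0.31 over all genes. The signed median was 0.33 over the factors and 0.01 over all genes, or 0.35 without TBX5, which had 0 reads in clone 2. Both clones were set against the same wild-type libraries, so their values stand side by side and are not counted as separate evidence.

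The libraries labelled rescue had less PAX5, SOX3, SOX7, SOX8 and TBX15 than clone 2, by 2-fold or more, and somewhat more PAX6 and SOX18. Between these libraries and clone 2, 23 of 44 were called, beside 39.2% of all genes, 9 higher beside 19.3% and 14 lower beside 19.9%. Past 2-fold, 0 were higher, beside 0.48% of all genes, and 5 lower, beside 4.47%, out of 4.95% called past 2-fold in either direction. All 5 had been called higher past 2-fold in clone 2 than in wild-type, and both comparisons use the clone 2 libraries. PAX5 and SOX3 also passed the low-count filter mainly through clone 2, so a call lower in rescue was nearly fixed for them. SOX8 and TBX15 passed it through the clones, with 26 and 36 reads in rescue, so the filter favoured that call for them as well. The median absolute log2 fold change was 0.25 over the factors, or 0.26 without TBX5, and 0.17 over all genes. Against wild-type the libraries labelled rescue differed in 29 of 44, beside 58.4% of all genes, 18 higher beside 28.5% and 11 lower beside 29.9%. Of the 29, 7 were higher past 2-fold, beside 6.78%, and TBX1 was lower past 2-fold, beside 3.97%. The 7 include FOXL2 and TBX2, which passed the filter through clone 2 and rescue, and PAX5, which passed it mainly through clone 2. Clone 2 differed from clone 1 in 31 of 44, beside 62.2% of all genes, 16 higher beside 30.3% and 15 lower beside 31.9%. The median absolute log2 fold change was 0.41 over the factors for rescue against wild-type, beside 0.28 over all genes, and 0.43 between the clones, beside 0.31. Between the clones 8 were higher past 2-fold, beside 7.29% of all genes, and 3 lower, beside 6.64%. The 8 include PAX5 and SOX3, and the 3 include TBX5, which passed the filter through the clone where they are high. FOXL2 and TBX2, also among the 8, passed it through clone 2 and rescue, with 3 and 33 reads in clone 1.

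**Figure D2:**
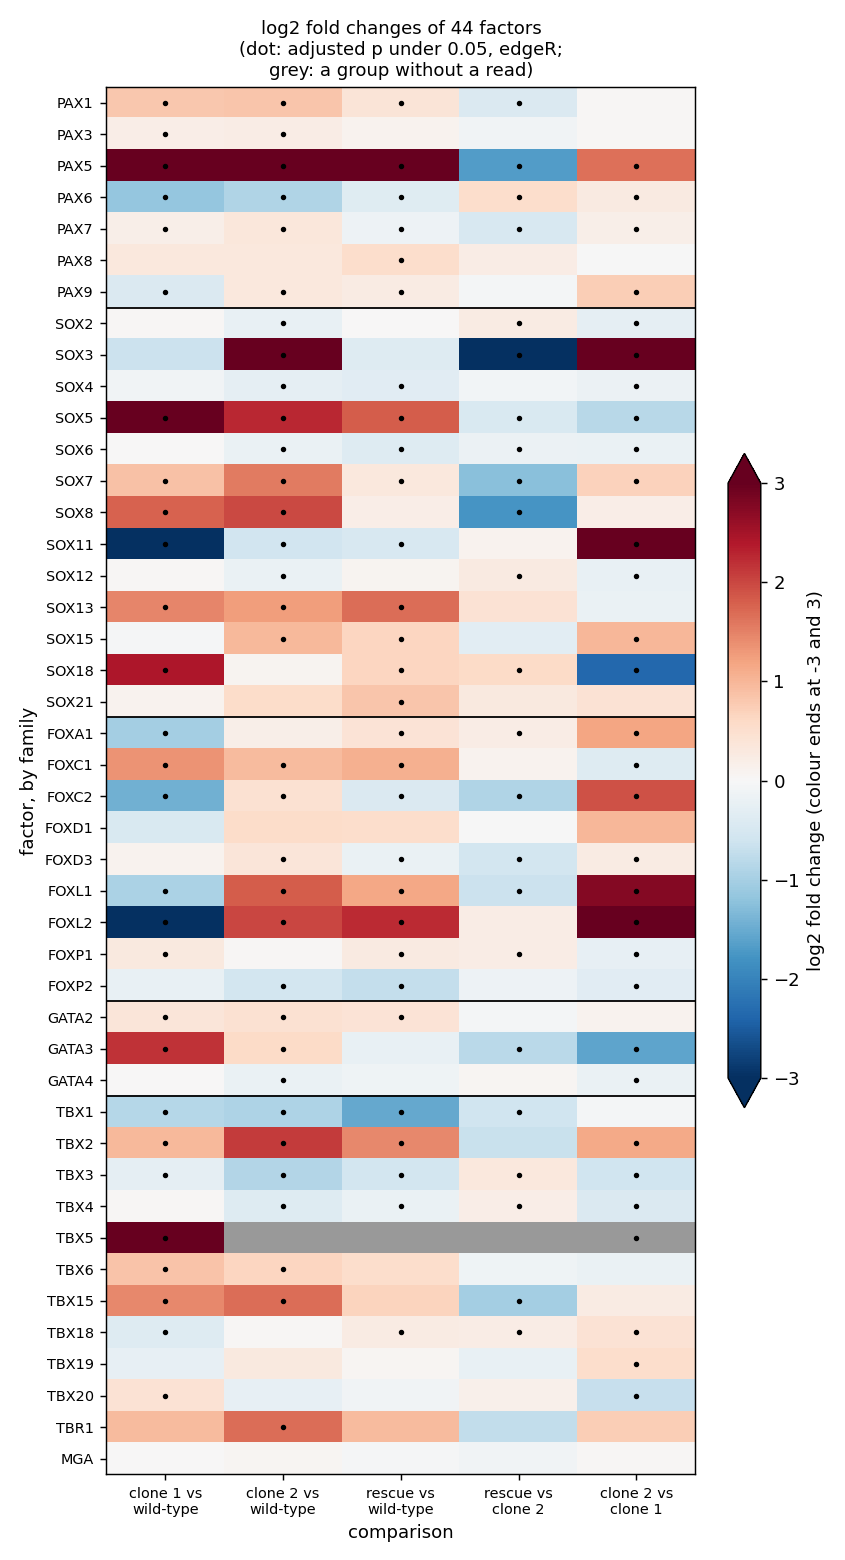
Log2 fold changes of the 44 factors (rows, by family) in the 5 comparisons (columns), with red for higher and blue for lower in the group named first, a dot for an adjusted p under 0.05 and grey where a group had no read of TBX5. Red rows shared by both clones include PAX5, SOX5, SOX8 and SOX13, and rows of opposite colour in the clones include FOXC2, FOXL1 and FOXL2.

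Among the PAX factors, 4 of 7 were called higher and 2 lower in clone 1, beside 30.8% and 30.7% of all genes tested, and 5 higher and 1 lower in clone 2, beside 31.5% and 30.6%. PAX5 (ENSG00000196092, chromosome 9, 36833275 to 37034185, minus strand), the factor that commits lymphocytes to the B cell line, stood at 0.0419, 0.0474 and 0 CPM in wild-type cells, 0.550, 0.213 and 0.247 in clone 1, 0.977, 1.11 and 0.972 in clone 2 and, under the rescue label, 0.330, 0.271 and 0.344. Every library of the other 3 groups lay above the 3 wild-type libraries, which held 2 reads in all. From summed reads the ratio to wild-type was 11.7 in clone 1 (95% counting interval 2.90 to 102.8), 37.5 in clone 2 (10.0 to 315.7) and 11.7 in the libraries labelled rescue (2.91 to 101.7). Such intervals are exact binomial ones and cover counting error only. Rescue was below clone 2, with a log2 fold change of -1.67 (SE 0.340), adjusted p = 0.000109. Of 8 blood cell markers 3 had a row. Their summed level was 2.06 to 2.51 CPM in wild-type cells, 17.3 to 19.3 in clone 1, 3.29 to 4.61 in clone 2 and 3.06 to 3.30 in the libraries labelled rescue. Nearly all of it was the actin regulator CORO1A, while PTPRC, which defines leukocytes, stood at 0.0710, 0.111, 0.0570 and 0.0632 CPM. The part of these markers in the PAX5 difference was not tested.

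PAX6 (ENSG00000007372, chromosome 11, 31784779 to 31818062, minus strand), a regulator of eye, brain and endocrine pancreas, moved the other way. Its level was 21.3, 22.7 and 22.9 CPM in wild-type cells, 9.85, 10.3 and 9.75 in clone 1, 13.2, 11.9 and 10.6 in clone 2 and, under the rescue label, 16.8, 16.4 and 18.7. All wild-type libraries lay above all others, and those labelled rescue lay between wild-type and clone 2. Its log2 fold changes were -1.16 (SE 0.075) in clone 1, -0.89 (SE 0.073) in clone 2 and 0.53 (SE 0.076) between rescue and clone 2. PAX6 is on chromosome 11, where the median gene of 1 CPM or more was lower in clone 2 than in wild-type, at -0.60 on the log2 scale, and near level in clone 1, at -0.02. The 5 such genes within 1 Mb of PAX6 had medians of -0.34 in clone 1 and -0.59 in clone 2. SOX6, on the same chromosome, stood at -0.21 in clone 2.

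The PAX factors with the highest levels changed little. PAX7 (ENSG00000009709, chromosome 1, 18631006 to 18748866, plus strand) was called in all 5 comparisons, yet its means ran only from 84.9 ± 4.67 CPM in the libraries labelled rescue through 93.9 ± 0.931 in wild-type and 106 ± 3.04 in clone 1 to 119 ± 12.1 in clone 2. PAX3, its neural crest and muscle paralog, stood at 25.7, 29.1, 29.9 and 27.8 CPM in wild-type, clone 1, clone 2 and rescue. PAX1, which with PAX9 patterns the sclerotome that forms vertebrae, was higher in both clones, with means of 10.7 ± 0.364 CPM in wild-type, 18.5 ± 1.22 in clone 1 and 18.8 ± 0.772 in clone 2. Under the rescue label it stood at 14.0 ± 1.19 CPM, between wild-type and both clones. PAX9 instead was lower in clone 1, at -0.43, and higher in clone 2, at 0.31. PAX8, a thyroid and kidney factor, was called higher only in rescue against wild-type, at 0.53 (SE 0.139). Of 7 skeletal muscle markers, a tissue in which PAX7 and PAX3 act, 2 had a row, with sums of 1.17 to 3.34 CPM, and MYOD1, MYF5 and MYOG were not analysed here.

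SOX11 gave the largest loss among the SOX factors. SOX11 (ENSG00000176887, chromosome 2, 5692667 to 5701385, plus strand), a SoxC factor of neural progenitors, stood at 41.0, 45.0 and 41.8 CPM in wild-type and 1.05, 0.996 and 0.864 in clone 1. In clone 2 it stood at 29.3, 27.2 and 28.7 and in the libraries labelled rescue at 29.8, 31.2 and 30.2 CPM. Clone 1 lay far below every other library, and clone 2 and the libraries labelled rescue lay close together below wild-type. The log2 fold change was -5.45 (SE 0.099) in clone 1 (adjusted p = 1.22e-35) and -0.58 (SE 0.052) in clone 2, and clone 2 stood above clone 1 by 4.87 (SE 0.107). The other SoxC factors, SOX4 and SOX12, had log2 fold changes of -0.10 (SE 0.046) and 0.03 (SE 0.036) in clone 1, neither called. The SoxB1 factor SOX2 was likewise not called in clone 1, at 0.05 (SE 0.048), and was lower in clone 2, at -0.22 (SE 0.049).

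SOX11 lies on the short arm of chromosome 2, and its start is 2.986178 Mb nearer the telomere than that of ID2, the gene that was targeted. Among genes of 1 CPM or more on the telomere side of ID2, leaving out SOX11 and ID2, 12 of 13 were lower than wild-type in clone 2, with a median log2 fold change of -0.94. On the other side of ID2, over a window of 8.678845 Mb, 2 of 30 were lower, with a median of 0.32. The libraries labelled rescue had medians of -0.84 and 0.32 against wild-type. In clone 1 the medians were -0.46 on the telomere side, with 11 of 13 lower, and -0.14 on the other. Of the 3 genes between SOX11 and ID2, the ubiquitin ligase RNF144A had a log2 fold change of -4.78 in clone 1, near that of SOX11, and CMPK2, a nucleotide kinase, had -1.62. The antisense gene ID2-AS1 had 0.08. The part of the chromosome arm in the SOX11 difference was not tested, and DNA copy number was not analysed here. No gene of 1 CPM or more starts within 1 Mb of SOX11, and its exons share bases with the same-strand gene AC108025.2.

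**Figure D3:**
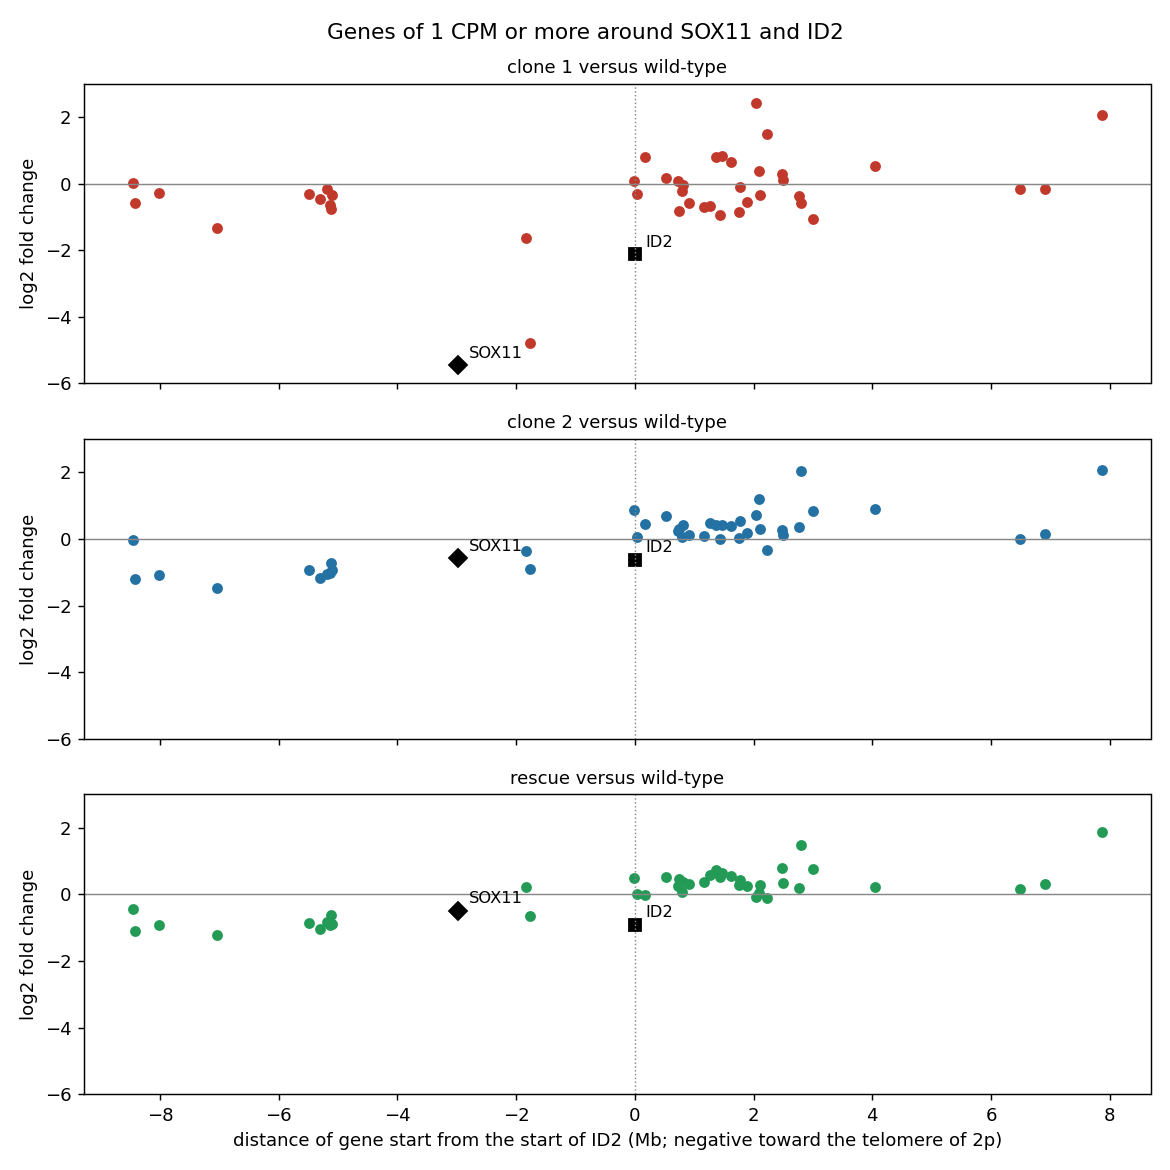
Log2 fold change against wild-type of genes of 1 CPM or more (points) by the distance of their start from that of ID2 in Mb, negative toward the telomere, for clone 1 (top), clone 2 (middle) and the libraries labelled rescue (bottom), with SOX11 as a diamond and ID2 as a square. In clone 2 and rescue the points left of ID2 have medians of -0.94 and -0.84 and those right of it 0.32 and 0.32, while in clone 1 SOX11 and one neighbour lie below -4.

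Of the 13 SOX factors 5 were called higher and 1 lower in clone 1, beside 30.8% and 30.7% of all genes, and 6 higher and 5 lower in clone 2, beside 31.5% and 30.6%. SOX5, SOX8 and SOX13 were higher in both clones. SOX5 (ENSG00000134532, chromosome 12, 23529500 to 24562544, minus strand), a SoxD factor that acts with SOX6 and SOX9 in cartilage, stood at 1.05, 1.47 and 1.93 CPM in wild-type cells, 12.8, 12.5 and 13.5 in clone 1, 7.47, 6.53 and 7.78 in clone 2 and, under the rescue label, 5.87, 5.08 and 5.08. The 4 groups did not overlap. Its log2 fold changes were 3.09 (SE 0.133) in clone 1, 2.27 (SE 0.148) in clone 2 and -0.45 (SE 0.112) between rescue and clone 2. SOX13 (ENSG00000143842, chromosome 1, 204073115 to 204127743, plus strand), another SoxD factor, stood at 1.17, 1.52 and 0.517 CPM in wild-type cells, 2.70, 3.09 and 2.68 in clone 1, 2.69, 2.68 and 1.94 in clone 2 and, under the rescue label, 3.52, 2.44 and 3.90. Wild-type lay below the other 3 groups, which overlapped one another. The log2 fold changes against wild-type were 1.47 (SE 0.237), 1.26 (SE 0.245) and 1.69 (SE 0.227). SOX6, the remaining SoxD factor, had 6.60 CPM per kb in wild-type, against 0.142 for SOX5 and 0.144 for SOX13, and in clone 1 it stood at 129.9 CPM against 129.6 in wild-type.

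SOX8 (ENSG00000005513, chromosome 16, 981808 to 986979, plus strand), a SoxE factor close to SOX9 and SOX10, stood at 0.336, 0.142 and 0.345 CPM in wild-type cells, 0.95, 0.853 and 1.15 in clone 1, 1.15, 1.01 and 1.20 in clone 2 and, under the rescue label, 0.294, 0.349 and 0.344. Both clones lay above wild-type and rescue, which overlapped. SOX8 passed the low-count filter through the clones, with 21 reads in wild-type and 26 under the rescue label. This order was thus partly set by the filter. The log2 fold changes were 1.77 (SE 0.338) in clone 1, 1.97 (SE 0.331) in clone 2 and -1.76 (SE 0.315) between rescue and clone 2, while rescue against wild-type was not called, at 0.21 (SE 0.420). SOX3, a SoxB1 factor of the X chromosome, never reached 1 CPM. It held 5 reads in wild-type cells, 3 in clone 1, 41 in clone 2 and, under the rescue label, 4, and clone 2 was above clone 1 by a ratio of 14.1 (95% counting interval 4.51 to 71.4).

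Of 12 cartilage genes listed as targets of SOX9, SOX5 and SOX6, 7 were tested. In clone 1, 5 were called higher and 1 lower than wild-type, beside 30.8% and 30.7% of all genes. In clone 2 these were also 5 and 1, beside 31.5% and 30.6%, with list medians of 0.82 and 0.56 beside 0.01 for all genes in each. COL9A2, a chain of type IX collagen, had 7.92 CPM in wild-type and rose to 143 in clone 1 and to 33.7 in clone 2. COL9A3, another chain of it, rose to 56.9 from 7.17 in clone 1 and stood at 7.55 in clone 2. The matrix protein MATN3 rose past 2-fold in clone 1, at 1.01 (SE 0.144). COL2A1, the main collagen of cartilage, fell in both, from 14.6 to 5.92 and 6.22 CPM. Of 5 cartilage cell markers 2 had a row, COL2A1 and MATN1, and ACAN, COMP and CNMD were not analysed here.

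Among the 13 genes listed as SOX10 targets of glia and pigment cells, 8 were tested. In clone 1, 2 were called higher and 3 lower, beside 30.8% and 30.7% of all genes, and in clone 2, 2 and 2, beside 31.5% and 30.6%, so the counts lie near those shares. S100B, a calcium-binding protein of Schwann cells, rose from 0.122 to 1.36 CPM in clone 1. RET, a receptor of the enteric neural crest, fell from 3.74 CPM in wild-type to 1 read in clone 1, to 1.03 CPM in clone 2 and to 0.378 CPM under the rescue label. MITF, the pigment cell regulator, fell in clone 1, from 2.78 to 0.774 CPM.

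Of the SoxF factors of endothelium, SOX7 rose in both clones and SOX18 in clone 1. SOX7 (ENSG00000171056, chromosome 8, 10723768 to 10730512, minus strand) stood at 3.27, 2.84 and 3.48 CPM in wild-type cells, 5.75, 6.40 and 5.52 in clone 1, 9.49, 9.77 and 9.54 in clone 2 and, under the rescue label, 3.56, 4.26 and 4.28. Clone 2 was the highest group and clone 1 the next, with no overlap, and rescue lay just above wild-type. Its log2 fold changes were 0.87 (SE 0.123) in clone 1, 1.57 (SE 0.113) in clone 2 and -1.25 (SE 0.107) between rescue and clone 2. Exons of SOX7 share bases with the same-strand gene PINX1. SOX18 (ENSG00000203883, chromosome 20, 64047582 to 64049641, minus strand) stood at 8.98, 6.59 and 6.24 CPM in wild-type cells, 39.6, 37.4 and 40.3 in clone 1, 8.13, 6.88 and 7.68 in clone 2 and, under the rescue label, 11.2, 12.4 and 10.5. Clone 1 stood apart and clone 2 overlapped wild-type. The log2 fold changes were 2.43 (SE 0.082) in clone 1, 0.08 (SE 0.109) in clone 2, which was not called, and -2.36 (SE 0.083) between clone 2 and clone 1.

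Endothelial markers were summed beside these factors. Among 10 of them 4 had a row, with sums of 22.1 to 23.7 CPM in wild-type cells, 32.1 to 35.9 in clone 1, 44.5 to 49.5 in clone 2 and 31.1 to 31.3 in the libraries labelled rescue. Most of the sum was EGFL7, at 18.5, 29.4, 38.1 and 23.6 CPM. CLDN5, a tight junction protein, was higher in both clones, while ESAM, an adhesion molecule, was lower in clone 1, at -0.57 (SE 0.172), and higher in clone 2, at 0.35 (SE 0.152). CDH5, which defines endothelium, stood at 0.0800, 0.176, 0.0477 and 0.0379 CPM, and PECAM1, KDR, TEK, TIE1, ROBO4 and VWF were not analysed here. The part of these markers in the SOX7 and SOX18 differences was not tested. In bulk libraries a change in the number of cells of a type and a change in RNA per cell cannot be told apart. SOX15 and SOX21, the remaining SOX factors, changed less: SOX15 was higher in clone 2, at 0.96 (SE 0.204), and SOX21 was called in rescue against wild-type, at 0.84 (SE 0.232).

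**Figure D4:**
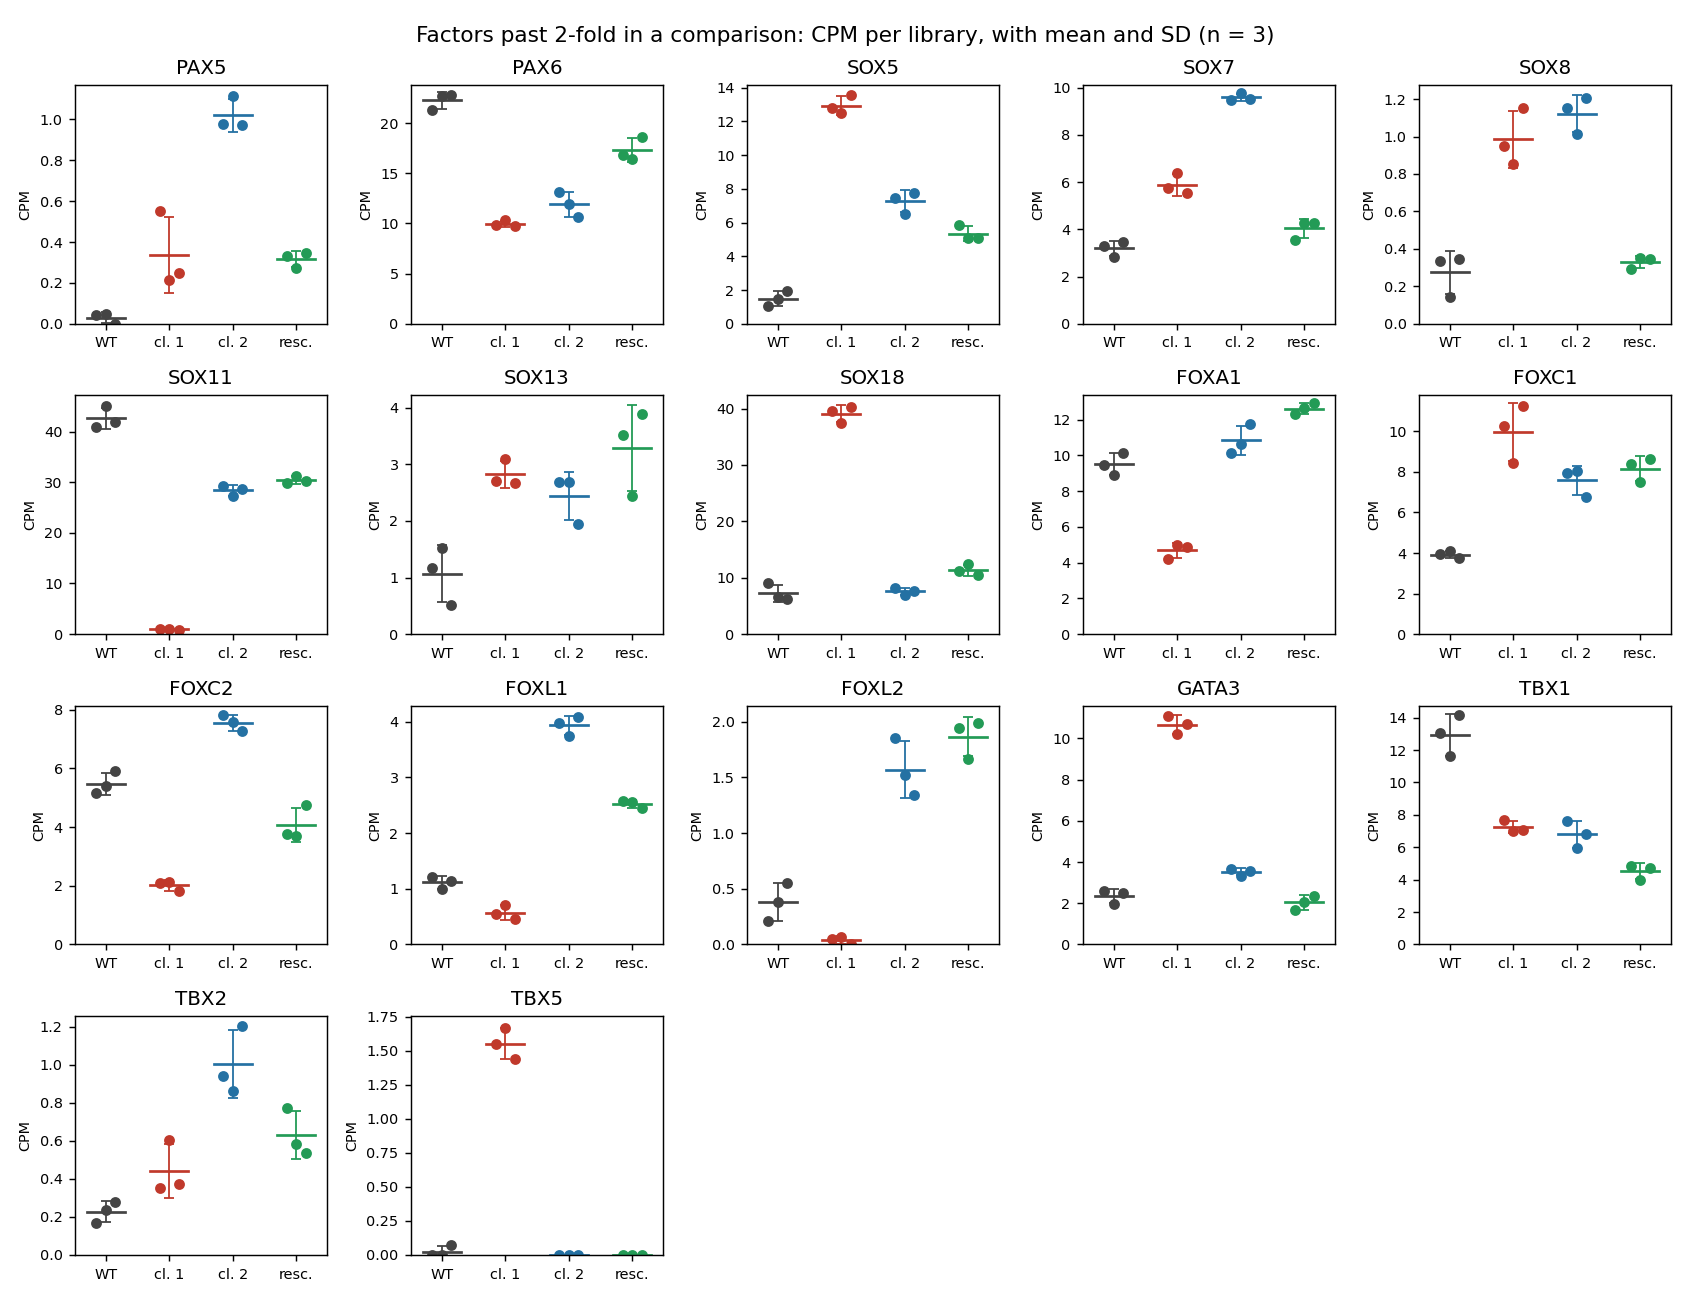
CPM of the 17 factors called past 2-fold in at least 1 comparison that reached 1 CPM in a group, each on its own axis from 0, with 1 point per library, the group mean as a bar and the SD as an error bar (n = 3). SOX11 in clone 1 lies at 0.864 to 1.05 CPM against 41.0 to 45.0 in wild-type, and SOX18, GATA3 and TBX5 stand apart in clone 1.

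Of the 9 FOX factors, FOXC2, FOXL1 and FOXL2 were called lower in clone 1 and higher in clone 2. In all, 2 FOX factors were called higher and 4 lower in clone 1, beside 30.8% and 30.7% of all genes, and 5 higher and 1 lower in clone 2, beside 31.5% and 30.6%. FOXC2 (ENSG00000176692, chromosome 16, 86566829 to 86569728, plus strand), a mesenchymal and lymphatic factor, stood at 5.16, 5.40 and 5.89 CPM in wild-type cells, 2.10, 2.13 and 1.81 in clone 1, 7.82, 7.59 and 7.27 in clone 2 and, under the rescue label, 3.78, 3.68 and 4.74. The groups did not overlap, and rescue lay below wild-type. Its log2 fold changes were -1.45 (SE 0.141) in clone 1, 0.46 (SE 0.109) in clone 2 and -0.90 (SE 0.114) between rescue and clone 2. FOXL1 (ENSG00000176678, chromosome 16, 86576368 to 86582160, plus strand), a factor of gut mesenchyme, starts 6.64 kb from the end of FOXC2. It stood at 1.22, 0.995 and 1.14 CPM in wild-type cells, 0.550, 0.711 and 0.453 in clone 1, 3.98, 3.74 and 4.07 in clone 2 and, under the rescue label, 2.57, 2.56 and 2.45. Clone 1 was lowest and clone 2 highest, with no overlap. Clone 1 was at -0.95 (SE 0.260) and clone 2 at 1.81 (SE 0.174) against wild-type. The 10 genes of 1 CPM or more within 1 Mb of FOXC2, FOXL1 among them, had medians of 0.10 in clone 1 and 0.07 in clone 2.

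FOXL2 (ENSG00000183770, chromosome 3, 138944224 to 138947140, minus strand), the factor that keeps ovarian identity, stood at 0.210, 0.379 and 0.552 CPM in wild-type cells, 0.05, 0.0711 and 0 in clone 1, 1.85, 1.52 and 1.34 in clone 2 and, under the rescue label, 1.95, 1.67 and 1.99. Wild-type held 29 reads, clone 1 only 3, clone 2 112 and rescue 148. FOXL2 passed the low-count filter through clone 2 and rescue. From summed reads clone 1 was 9.47-fold lower than wild-type (95% counting interval 2.93 to 48.6), and clone 2 was above clone 1 by a ratio of 38.6 (12.9 to 190.1). The edgeR log2 fold change of clone 2 against wild-type was 2.01 (SE 0.298), and rescue did not differ from clone 2 by the test, at 0.23 (SE 0.213).

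FOXC1 (ENSG00000054598, chromosome 6, 1609972 to 1613897, plus strand), the paralog of FOXC2 with a role in the eye and neural crest, was higher in every group than in wild-type. It stood at 3.94, 4.08 and 3.76 CPM in wild-type cells, 10.2, 8.43 and 11.2 in clone 1, 7.96, 8.05 and 6.76 in clone 2 and, under the rescue label, 8.37, 7.48 and 8.64. Wild-type lay below all other libraries. Against wild-type the log2 fold changes were 1.34 (SE 0.114), 0.96 (SE 0.121) and 1.06 (SE 0.117). FOXA1 (ENSG00000129514, chromosome 14, 37589984 to 37596059, minus strand), a pioneer factor of epithelia, stood at 9.44, 8.91 and 10.1 CPM in wild-type cells, 4.20, 4.98 and 4.90 in clone 1, 10.2, 10.6 and 11.8 in clone 2 and, under the rescue label, 12.3, 12.6 and 12.9. Clone 1 lay below every other library. Its log2 fold change was -1.01 (SE 0.100) in clone 1, and 1.19 (SE 0.099) between clone 2 and clone 1.

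FOXA1 and PAX9 lie 910.269 kb apart on chromosome 14 and were both lower in clone 1. The 4 genes of 1 CPM or more within 1 Mb of FOXA1 had a median of -0.60 there, and the 7 near PAX9 one of -0.57, beside -0.03 for chromosome 14. Each set includes the other factor and the windows overlap, so these medians are not independent of the factors or of each other. The part of this region in both differences was not tested. Markers of simple epithelium went the other way in clone 1: 6 of 8 had a row, and their summed level was 884.7 to 952.2 CPM against 115.4 to 121.6 in wild-type cells, 153.8 to 191.4 in clone 2 and 77.4 to 87.3 in the libraries labelled rescue. KRT8 and KRT18 made up most of it, EPCAM stood at 18.7 CPM in clone 1 against 0.836, and CDH1 was not analysed here.

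Of the other FOX factors, FOXD3, which specifies early neural crest, was higher in clone 2, at 0.35 (SE 0.081), and lower in rescue than in clone 2, at -0.55 (SE 0.081). FOXP1 was called higher in clone 1, at 0.29 (SE 0.052), and stood at 0.04 (SE 0.053) in clone 2. The 4 genes of 1 CPM or more within 1 Mb of FOXP1 had medians of -1.63 in clone 1 and 1.64 in clone 2. FOXP2, a factor of brain and lung, was lower in clone 2, at -0.55 (SE 0.110). FOXD1 was not called in any comparison and stayed between 0.238 and 0.481 CPM on average. The Groucho corepressors, through which PAX and FOX factors can repress, had 5 of 6 genes tested, of which 4 were called higher and 1 lower in clone 1, beside 30.8% and 30.7% of all genes, and 2 higher in clone 2, beside 31.5%. TLE6 rose from 0.740 to 3.80 CPM and TLE2 from 15.6 to 32.5 CPM in clone 1.

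Promoters were printed for the 4 of the 17 factors that have 1 RefSeq start each and a window of 250 bases before it that holds no GENCODE exon. SOX13, FOXC1 and PAX5 were higher than wild-type in both clones and in rescue, and TBX1 was lower in all of them. The E-box, CANNTG, is in capitals, read on both strands, since it is the DNA site of the E proteins that ID2 binds. The windows are from RefSeq, GRCh38.p14, 5′ to 3′ along the gene.
SOX13, chr1:204072865-204073114, plus strand: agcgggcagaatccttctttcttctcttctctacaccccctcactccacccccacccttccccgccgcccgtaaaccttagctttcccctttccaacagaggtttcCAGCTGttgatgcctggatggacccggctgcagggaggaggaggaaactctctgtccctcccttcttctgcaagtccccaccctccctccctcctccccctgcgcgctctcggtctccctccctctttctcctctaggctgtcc
FOXC1, chr6:1609665-1609914, plus strand: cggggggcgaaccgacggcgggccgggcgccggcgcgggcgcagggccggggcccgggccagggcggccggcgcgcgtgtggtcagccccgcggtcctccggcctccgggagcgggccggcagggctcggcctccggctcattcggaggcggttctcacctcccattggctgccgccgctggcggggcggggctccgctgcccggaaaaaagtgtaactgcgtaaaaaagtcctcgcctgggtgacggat
PAX5, chr9:37034269-37034518, minus strand: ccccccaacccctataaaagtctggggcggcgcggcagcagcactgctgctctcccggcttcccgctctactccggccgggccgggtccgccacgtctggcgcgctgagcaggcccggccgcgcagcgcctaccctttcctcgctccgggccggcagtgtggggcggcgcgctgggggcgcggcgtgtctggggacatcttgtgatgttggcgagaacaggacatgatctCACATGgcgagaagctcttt
TBX1, chr22:19756453-19756702, plus strand: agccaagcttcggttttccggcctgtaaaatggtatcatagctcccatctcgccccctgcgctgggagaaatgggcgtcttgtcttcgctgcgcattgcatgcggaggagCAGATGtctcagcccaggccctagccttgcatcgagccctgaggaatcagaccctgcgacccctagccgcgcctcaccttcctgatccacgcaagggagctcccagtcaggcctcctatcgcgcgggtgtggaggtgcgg
The windows of SOX13, PAX5 and TBX1 hold 1 match each and that of FOXC1 holds 0, and the match of SOX13 is CAGCTG. Such matches are common: 61.8% of 35116 RefSeq promoter windows of the same length hold CANNTG, and 14.0% hold CAGCTG. Over all 60 windows of the 32 factors that matched the RefSeq table, 36 held CANNTG, which is 60.0%, 6 held CAGCTG and 8 held CAGGTG or its reverse CACCTG, which 17.5% of all windows hold. A match is only a string of letters and does not show binding.

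Of 3 GATA factors 2 were called higher in clone 1, beside 30.8% of all genes, and 2 higher and 1 lower in clone 2, beside 31.5% and 30.6%. GATA3 (ENSG00000107485, chromosome 10, 8045378 to 8075203, plus strand), a regulator of T cells and of several epithelia, stood at 2.60, 1.94 and 2.48 CPM in wild-type cells, 11.1, 10.2 and 10.7 in clone 1, 3.67, 3.34 and 3.56 in clone 2 and, under the rescue label, 1.69, 2.05 and 2.37. Clone 1 stood apart, clone 2 lay above wild-type, and rescue overlapped wild-type. Its log2 fold changes were 2.17 (SE 0.122) in clone 1, 0.58 (SE 0.150) in clone 2 and -0.80 (SE 0.152) between rescue and clone 2. The epithelial and blood marker sums given above were also highest in clone 1, and their part in the GATA3 difference was not tested.

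GATA2, a factor of blood stem cells and endothelium with a higher level per kb, was called higher in all 3 other groups than in wild-type, at 34.0 ± 1.84 CPM in wild-type cells, 43.5 ± 1.94 in clone 1, 46.6 ± 2.18 in clone 2 and 45.1 ± 0.598 under the rescue label. GATA4, a heart and endoderm factor, stood at 20.8 ± 0.481, 20.9 ± 0.732, 18.2 ± 0.643 and 19.1 ± 0.644 CPM, and only clone 2 was called, at -0.20 (SE 0.062). It lies 946.447 kb from SOX7 on chromosome 8, whose median gene stood at -0.22 in clone 2. Of 5 cofactors that GATA proteins bind 4 were tested, and in both clones 2 were called higher and 1 lower, beside 30.8% and 30.7% of all genes in clone 1 and 31.5% and 30.6% in clone 2. ZFPM2, which binds GATA4, had 13.1 CPM in wild-type and fell to 3.09 in clone 1 and to 3.45 in clone 2, with 4.94 under the rescue label. Its paralog ZFPM1 rose from 0.873 to 2.70 CPM in clone 2.

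TBX5 had at most 2 reads in any group but clone 1. Of the 12 T-box factors 5 were called higher and 3 lower in clone 1, beside 30.8% and 30.7% of all genes, and 4 higher and 3 lower in clone 2, beside 31.5% and 30.6%. TBX5 (ENSG00000089225, chromosome 12, 114353931 to 114408442, minus strand), the factor of forelimb and heart, stood at 1.55, 1.67 and 1.44 CPM in clone 1, from 113 reads. Wild-type held 2 reads, both in library 3, and clone 2 and rescue held 0. The ratio of clone 1 to wild-type was 57.7 (95% counting interval 15.6 to 482.2), and clone 2 was at least 36.4-fold lower than clone 1 with a floor of 3 counts over the group. TBX3, which lies 261.812 kb from TBX5 and acts in limb and heart, did not rise with it: its means were 13.4 ± 0.534 CPM in wild-type cells, 11.1 ± 0.820 in clone 1, 7.30 ± 0.709 in clone 2 and 9.16 ± 0.996 under the rescue label. It was called lower than wild-type in each of these groups.

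TBX1 (ENSG00000184058, chromosome 22, 19756703 to 19783593, plus strand), the pharyngeal arch factor of the region lost in DiGeorge syndrome, stood at 13, 11.6 and 14.2 CPM in wild-type cells, 7.70, 7.0 and 7.04 in clone 1, 7.64, 5.97 and 6.81 in clone 2 and, under the rescue label, 4.85, 3.95 and 4.74. All wild-type libraries were highest and all libraries labelled rescue lowest. It had log2 fold changes of -0.85 (SE 0.095) in clone 1, -0.92 (SE 0.097) in clone 2, -0.61 (SE 0.116) between rescue and clone 2 and -1.53 (SE 0.102) between rescue and wild-type. Rescue was thus further from wild-type than clone 2 was.

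TBX2 (ENSG00000121068, chromosome 17, 61399896 to 61409466, plus strand), a repressor that can bypass senescence, stood at 0.168, 0.237 and 0.276 CPM in wild-type cells, 0.350, 0.604 and 0.370 in clone 1, 0.942, 0.860 and 1.20 in clone 2 and, under the rescue label, 0.771, 0.581 and 0.535. Wild-type lay below all other libraries, from 17 reads, and TBX2 passed the low-count filter through clone 2 and rescue. These gave log2 fold changes of 2.10 (SE 0.362) in clone 2 and 0.97 (SE 0.425) in clone 1, where the adjusted p of 0.0466 was lost in most other fits. TBX4, a hindlimb and lung factor 42.938 kb from TBX2, was instead lower in clone 2, at -0.40 (SE 0.063), and stood at 0.04 (SE 0.060) in clone 1. TBX15 and the cortical factor TBR1 passed 2-fold in clone 2, at 1.68 (SE 0.386) and 1.68 (SE 0.452), without a mean of 1 CPM in any group, and TBX15 did so in clone 1 as well, at 1.44 (SE 0.397).

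The remaining T-box factors did not pass 2-fold. TBX6, of the presomitic mesoderm, was higher in both clones, at 0.85 (SE 0.249) and 0.66 (SE 0.259). TBX18 was lower in clone 1, at -0.40 (SE 0.062), TBX20, a heart factor, was higher there, at 0.43 (SE 0.144), and TBX19, the pituitary factor, was called only between the clones, at 0.53 (SE 0.143). MGA, which carries a T domain and binds MAX, was not called in any comparison, with means of 144 ± 1.34, 146 ± 9.93, 150.4 ± 7.63 and 140.0 ± 9.59 CPM. Of its 13 partners in the polycomb complex PRC1.6, 2 were called higher and 7 lower in clone 1, beside 30.8% and 30.7% of all genes, and 2 and 6 in clone 2, beside 31.5% and 30.6%. None of these partners passed 2-fold in any of the 5 comparisons. L3MBTL2, a subunit with MBT domains, had a log2 fold change of -0.25 (SE 0.048) in clone 1 and PCGF6 one of 0.03 (SE 0.053). Of 15 germline genes that this complex silences, 4 were tested. ZCWPW1 rose from 0.348 CPM to 1.11 and 2.08 in the clones, while STAG3 fell in clone 1, from 2.90 to 1.39 CPM.

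Across families, 17 factors were called past 2-fold in a comparison with 1 CPM or more in a group, and 3 (SOX3, TBX15 and TBR1) passed 2-fold below that level. The other 24 never passed 2-fold with a call, and 2 of them, FOXD1 and MGA, were called in no comparison. Exons of 20 of the 44 share bases with another annotated gene, on the other strand for pairs such as FOXC2 with FOXC2-AS1, TBX5 with TBX5-AS1, PAX6 with PAUPAR and FOXA1 with TTC6. The strand setting of the counting is not given in the sources used here, so reads of such pairs may not have been told apart. For same-strand pairs, such as SOX7 with PINX1, no strand setting separates reads of the shared bases. The libraries were made with a kit that keeps strand. SOX5, SOX8, SOX13, SOX18, FOXC1, FOXL1, FOXL2 and GATA3 share no exon base with another gene.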

How the data were processed

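Gene counts of 12 libraries were used as deposited by the authors, raw reads per gene with Ensembl identifiers. The submitters' processing notes name STAR and hg38, and libraries were made with a stranded mRNA kit, per the labels' protocols. The sources used here give no counter, strand setting or filter behind the table's genes. Groups came from the titles. Symbols were looked up in a gene name table (20717 identifiers matched) and coordinates, with the build hg38, from GENCODE 29 (20825 matched).

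edgeR 4.0.16 in R 4.3.3 (TMM, minimum count 10 per group, 1 mean per group, all 12 libraries, 8 residual degrees of freedom) tested 17084 genes in 5 comparisons with Benjamini-Hochberg adjustment. Named with all libraries were factors called past 2-fold with 1 CPM or more in a group, and from each companion list up to 4 such genes per direction. A single companion gene that meets this rule, and the sum of a marker list that holds it, are not reported here. Other genes named within lists (PTPRC, CDH5, EGFL7, CLDN5, ESAM, KRT8, KRT18, EPCAM, L3MBTL2, PCGF6, FOXK1, FOXK2, FOXJ3, FOXM1, SNAI2 and the genes between SOX11 and ID2) were chosen after their values were seen. The members and the lists were chosen with earlier results of these data known. A group with 0 reads was given a floor of 3 counts. Libraries within groups differed beyond sampling noise (chi-square per degree of freedom 1.54 to 3.16). Alternatives were 2 other scalings, 2 other filters, DESeq2 1.42.0, limma-voom 3.58.1, only the groups compared, a replicate block and leaving out each library.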

Additional observations from a re-analysis of the deposited data

Results flagged for a closer look

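FOXC2, FOXL1 and FOXL2 were called lower than wild-type in clone 1 and higher in clone 2. These factors, and PAX9 below, were picked by such calls in the same libraries. The direction of clone 2 against clone 1, a small p and a gap between the clones were thus largely set by that choice. The contrast of clone 2 against clone 1 in the same edgeR fit gives the size of the difference and is not separate evidence. It was a log2 fold change of 1.91 (SE 0.134) for FOXC2, 2.75 (SE 0.202) for FOXL1 and 5.10 (SE 0.478) for FOXL2, with adjusted p of 5.86e-16, 2.31e-15 and 2.91e-12. All 3 clone 2 libraries lay above all 3 clone 1 libraries for each factor. For FOXL2 the clone 1 value rests on 3 reads, and the value without clone 1 replicate 2 was 5.84. PAX9 was also called lower in clone 1 and higher in clone 2, and the clones differed by 0.74 (SE 0.046), adjusted p = 1.41e-17, with means of 34.9 ± 0.561 CPM in clone 1 and 58.4 ± 0.761 in clone 2 (n = 3).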

How the results depend on the processing

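The 10 counts of called factors (higher and lower in 5 comparisons) stayed within 1.5 times of the reported ones under all 8 alternatives and all 12 fits that leave out 1 library. In clone 2 against wild-type 22 higher became 19 to 27, with 27 under upper quartile scaling, which moved the median gene by 0.07 on the log2 scale in that comparison, and 11 lower became 10 or 11. In clone 1, 18 higher became 15 to 19 and 10 lower 9 to 12. Of 1682 values of the 17 named factors recomputed, 0 reversed their direction, 24 were no longer called and 6 became called. TBX2 in clone 1 lost its call in 14 of them, with DESeq2, limma-voom, no filter, the replicate block and 10 of the fits without a library, at log2 fold changes of 0.65 to 1.15. SOX7 between rescue and wild-type lost its call with DESeq2 (adjusted p = 0.0661) and without any of wild-type replicate 1, wild-type replicate 2, rescue replicate 2 and rescue replicate 3, at 0.25 to 0.33. FOXA1 between rescue and clone 2 lost its call under upper quartile scaling and DESeq2 and without clone 2 replicate 1 (0.18) or rescue replicate 3 (0.22), and PAX6 between the clones lost it without clone 2 replicate 1 (0.17). SOX13 between rescue and clone 2 became called without rescue replicate 2 (0.61), wild-type replicate 2 (0.44) or wild-type replicate 3 (0.44), and FOXA1 in clone 2 became called in 3 alternatives, at 0.19 to 0.25. Without wild-type replicate 3, TBX5 in clone 1 moved from a fitted 5.61 to 8.24, since that library holds both wild-type reads, and PAX5 moved to 2.70 in clone 1, 4.35 in clone 2 and 2.69 in rescue. Without clone 1 replicate 2, FOXL2 in clone 1 moved from -3.09 to -3.83. The fits of only the groups compared did not test some factors of few reads.

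Whether replicate numbers pair the libraries was checked. Same-numbered libraries of different groups had correlations of their deviations of -0.10 to 0.15, and the others -0.17 to 0.10. In no pair of groups were all 3 over 0.1. The main fit took the numbers as names only, since the labels do not say that they mark a shared day or culture. Clone 1 with clone 2 had 0.06, 0.11 and 0.11 for the same numbers and negative values for the other pairings. Pairing between these groups is thus not excluded. With the replicate block, 17 factors were higher and 10 lower in clone 1, 23 and 11 in clone 2, 9 and 15 in rescue against clone 2, 18 and 11 in rescue against wild-type, and 16 and 15 between the clones.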

Other observations

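Factors of the same families outside the 59 were also measured. Of 38, 21 were tested, and 6 were called higher and 9 lower in clone 1, beside 30.8% and 30.7% of all genes, and 5 and 9 in clone 2, beside 31.5% and 30.6%. FOXI3, an ectodermal factor, rose from 4.62 CPM in wild-type to 10.4 in clone 1 and stood at 1.15 in the libraries labelled rescue. FOXE1, a thyroid factor, rose from 2.05 to 6.89 CPM in clone 2 and had a log2 fold change of -0.91 (SE 0.194) in clone 1. FOXN4, a retinal factor, fell from 1.35 to 0.177 CPM in clone 1 and stood at 2.55 in clone 2. TRPS1, an atypical GATA repressor of cartilage and bone, fell from 5.84 to 2.19 CPM in clone 2. The broadly expressed FOXK1, FOXK2, FOXJ3 and FOXM1 stayed within 2-fold in all comparisons.

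Neural crest regulators of other families gave 4 of 13 higher and 5 lower in clone 1, beside 30.8% and 30.7% of all genes, and 8 higher and 2 lower in clone 2, beside 31.5% and 30.6%. SNAI1, a repressor of epithelial genes, rose from 2.99 to 12.4 CPM in clone 1, while its paralog SNAI2 fell in both clones, from 9.94 to 6.14 and 5.27 CPM. TFAP2B rose from 4.03 to 14.1 CPM in clone 2. NR2F1 fell from 3.30 to 0.982 CPM in clone 1 and stood at 6.73 in the libraries labelled rescue. TWIST1 fell in all 3 groups, from 23.1 CPM to 16.1 in clone 1, 13.4 in clone 2 and 10.3 in the libraries labelled rescue. MSX1 rose to 57.5 and 45.8 CPM in the clones from 26.8 and stood at 20.0 in the libraries labelled rescue.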
